A study of Schizosaccharomyces pombe with 12 samples.

Results

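The RNAi machinery genes of fission yeast (Schizosaccharomyces pombe) were examined as 5 rows of the gene count table. They are ago1 (SPCC736.11), chp1 (SPAC18G6.02c), tas3 (SPBC83.03c), rdp1 (SPAC6F12.09) and dcr1 (SPCC188.13c). The rows were selected by identifier and make up 5 of 7268 features. RNA from whole cells was sequenced in lsd1-ΔHMG, set1Δ and wild-type strains at 37°C, the heat stress condition, and at 30°C, the permissive temperature. Each of the 6 conditions had 2 independently derived replicates. The lsd1-ΔHMG allele is a C-terminal truncation that removes the HMG (high mobility group) domain of Lsd1, a homolog of a histone demethylase, and the study's truncated protein also carries a C-terminal tag. In set1Δ the gene of Set1, the H3K4 methyltransferase of the COMPASS complex, is deleted.

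Fission yeast uses RNAi to keep pericentromeric repeats in heterochromatin. Transcripts of the repeats are turned into double-stranded RNA by the RNA-directed RNA polymerase Rdp1, and Dicer (Dcr1) cuts this RNA into small interfering RNAs. These guide the RITS complex, made of the Argonaute protein Ago1, the chromodomain protein Chp1 and the bridging subunit Tas3, to chromatin where Clr4 methylates histone H3K9.

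The libraries held between 27642384 and 34843653 counts. A level is given as CPM, the count divided by library size after scaling by the TMM method, and TPM adds division by gene length. All 5 genes passed the filter on low counts and were among 6904 features tested with edgeR's quasi-likelihood test. A gene rose or fell where its Benjamini-Hochberg adjusted p was under 0.05, and it was called where the log2 fold change also reached 1 in either direction. The set1 mRNA was at 15.9 ± 0.339 CPM in set1Δ cells and 100.2 ± 6.52 CPM in wild-type cells at 37°C (SD, n = 2 each). In the 30°C libraries it was at 14.4 ± 0.0577 CPM in set1Δ cells and 78.3 ± 2.21 CPM in wild-type cells (SD, n = 2 each). The lsd1 mRNA, which a truncation need not lower, fell by 0.97 in lsd1-ΔHMG at 37°C and did not pass the test at 30°C (0.06). The temperature labels were checked with 15 heat chaperones. At 37°C against 30°C, 13 rose and 2 fell in lsd1-ΔHMG cells, and 15 rose in set1Δ cells. In wild-type cells 6 rose and 7 fell at the label of 37°C. The summed level of the chaperones ran from 22066 to 22383 CPM at 37°C and from 11316 to 11644 CPM at 30°C in lsd1-ΔHMG libraries. In set1Δ libraries it ran from 32572 to 33053 CPM at 37°C and from 5403 to 5833 CPM at 30°C. In wild-type cells it ran from 13698 to 15110 CPM in the libraries labelled 37°C and from 52755 to 56734 CPM in those labelled 30°C. The small heat shock protein gene hsp16 is part of this sum and made up most of it in the wild-type libraries labelled 30°C. It was at 5166 ± 894 CPM in wild-type libraries labelled 37°C and at 37814 ± 2275 CPM in those labelled 30°C (SD, n = 2 each). The summed level, with hsp16 as its main part, thus goes against the wild-type temperature labels, while the list as a whole was split. At the wild-type label of 37°C, pss1 (2.02), wos2 (1.29), hsp10 (1.26), aha1 (1.16) and sti1 (1.04) were called higher. These genes also rose at 37°C in both mutants, and 6 other chaperones were called lower in wild-type. Each wild-type value below is given under its label. Comparisons with wild-type were also run with the wild-type libraries of the other label.

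In lsd1-ΔHMG cells at 37°C, ago1, chp1, dcr1 and rdp1 rose and tas3 did not pass the test. Among all tested features 41.3% rose in this comparison, so a rise was common. Of the 4, ago1, chp1 and dcr1 were called higher, as were 25.4% of all features. The median log2 fold change of the 5 genes was 1.08, against -0.06 for all features and 0.18 for the protein-coding ones. At 30°C, ago1, chp1, dcr1 and tas3 rose in lsd1-ΔHMG cells while rdp1 fell, where 39.9% of all features rose and 45% fell. Only dcr1 was called, and 24.4% of all features were called higher. The median of the 5 genes was 0.93, against -0.11 for all features and 0.06 for the protein-coding ones. It is again the value of ago1, which was at -0.18 with these offsets.

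In set1Δ cells at 37°C, ago1, chp1 and dcr1 rose, tas3 fell, and rdp1 did not pass the test. Among all features 36.7% rose and 33.8% fell. The calls were dcr1 as higher and tas3 as lower, and 18.7% of all features were called higher and 5.53% lower. The median of the 5 genes was 0.70, against 0.01 for all features and 0.02 for the protein-coding ones. Here too it is the value of ago1, which was at -0.07 with the GC and length offsets. At 30°C, ago1 and chp1 rose and tas3, rdp1 and dcr1 fell in set1Δ cells, where 47.7% of all features rose and 32.8% fell. Both genes that rose were called, as were 21.1% of all features. The median of the 5 genes was -0.27, against 0.22 for all features and 0.23 for the protein-coding ones. With so many features past the test, the shares of the 5 genes are read only as descriptions.

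**Figure D1:**
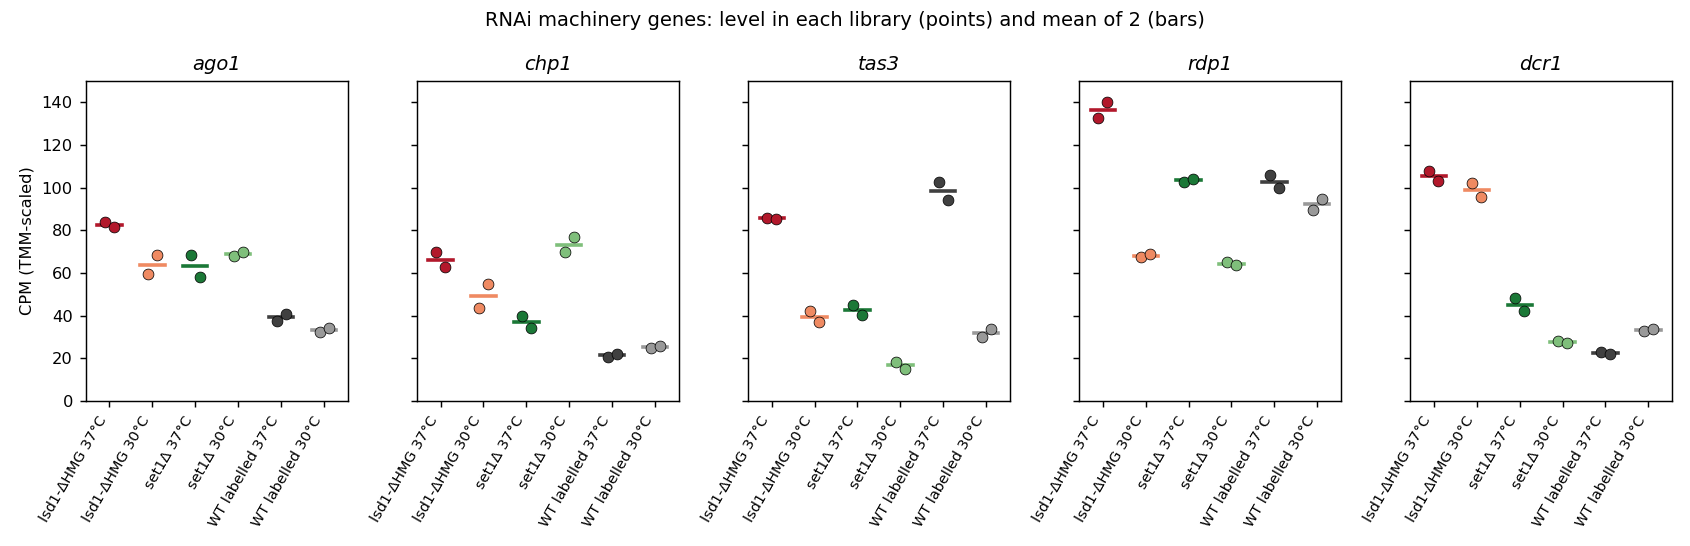
Level of each RNAi machinery gene as CPM (vertical axis) in each library (points) with the mean of 2 libraries (bars), by strain and labelled temperature. All mutant libraries lie above all wild-type libraries for ago1 (58.3 to 83.8 CPM against 32.5 to 40.6) and for chp1 (34.3 to 76.8 CPM against 20.7 to 26.0), while tas3 is highest in the wild-type libraries labelled 37°C. The separation of ago1 and chp1 is found for 17.2% of all features.

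The Argonaute gene ago1, whose protein holds the small RNA in RITS, was higher in both mutants than in wild-type. Its levels were 83.8 and 81.4 CPM at 37°C and 59.5 and 68.2 CPM at 30°C in lsd1-ΔHMG cells. In set1Δ cells they were 68.6 and 58.3 CPM at 37°C and 68.0 and 70.1 CPM at 30°C. In wild-type cells they were 37.7 and 40.6 CPM in libraries labelled 37°C and 32.5 and 34.3 CPM in those labelled 30°C. All 8 mutant libraries lay above all 4 wild-type libraries, and the lowest mutant library was at 58.3 CPM. The same separation was found for 17.2% of all features. The log2 fold change against wild-type at 37°C was 1.08 in lsd1-ΔHMG (standard error 0.10, adjusted p = 1.6e-07 from edgeR) and 0.70 in set1Δ (standard error 0.10, adjusted p = 2.6e-05 from edgeR). The 30°C value was 0.93 in lsd1-ΔHMG (standard error 0.10, adjusted p = 9.0e-07) and 1.05 in set1Δ (standard error 0.10, adjusted p = 4.4e-07 from edgeR). With the wild-type libraries of the other label, these 4 values were 1.31, 0.92, 0.70 and 0.82, and all 4 still passed the test.

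The rise of ago1 was lost in 3 of 4 comparisons with a joint correction for GC content and gene length, whose shares in the loss were not separated. Without it, the call in lsd1-ΔHMG at 37°C also fell short of the fold limit with DESeq2 size factors (0.98), TMM factors of protein-coding genes (0.82) or without replicate 1 of wild-type labelled 37°C (0.99). The call in set1Δ at 30°C fell short of it with DESeq2's factors or Wald test, upper-quartile factors, only the libraries compared, or GC and length offsets (0.67 to 0.98). Over 5104 protein-coding genes, the log2 fold change against wild-type followed GC content, with r = 0.57 in lsd1-ΔHMG and 0.50 in set1Δ at 37°C. At 30°C r was 0.49 in lsd1-ΔHMG and 0.11 in set1Δ. For log gene length r was 0.34 in lsd1-ΔHMG and 0.22 in set1Δ at 37°C, and 0.32 in lsd1-ΔHMG and 0.005 in set1Δ at 30°C; genes are not independent replicates and no test was made of these. The GC content of ago1, 38.8%, is higher than that of 77.4% of protein-coding genes, and its length exceeds that of 83.3%. The other 4 genes have GC contents between 35.7% and 36.2%. Of these, chp1, rdp1 and dcr1 are longer than ago1, and tas3 is shorter. Once every library was corrected by offsets for GC and length, ago1 at 37°C was at -0.15 in lsd1-ΔHMG (adjusted p = 0.13 from edgeR) and -0.07 in set1Δ (adjusted p = 0.48 from edgeR). At 30°C it was -0.18 in lsd1-ΔHMG (adjusted p = 0.075 from edgeR), and 0.67 in set1Δ (adjusted p = 3.2e-06 from edgeR). Of the 4 rises of ago1, only that of set1Δ at 30°C therefore passed the test with these offsets.

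The RITS chromodomain gene chp1, whose protein binds methylated H3K9, was also higher in both mutants. In lsd1-ΔHMG cells its levels were 69.7 and 62.6 CPM at 37°C and 43.6 and 55.0 CPM at 30°C. In set1Δ cells they were 39.7 and 34.3 CPM at 37°C and 69.8 and 76.8 CPM at 30°C, and in wild-type cells 20.7 and 22.2 CPM in libraries labelled 37°C and 25.0 and 26.0 CPM in those labelled 30°C. All mutant libraries lay above all wild-type libraries, as for 17.2% of all features, and the mutants ordered differently at the 2 temperatures. At 37°C the log2 fold change against wild-type was 1.63 in lsd1-ΔHMG (standard error 0.12, adjusted p = 2.0e-08 from edgeR) and 0.79 in set1Δ (standard error 0.12, adjusted p = 6.2e-05 from edgeR). At 30°C it was 0.95 in lsd1-ΔHMG (standard error 0.12, adjusted p = 5.6e-06 from edgeR) and 1.52 in set1Δ (standard error 0.12, adjusted p = 7.1e-08 from edgeR). With the GC and length offsets chp1 rose in all 4 comparisons, by 1.15, 0.45, 0.52 and 1.37 in that order. With the wild-type libraries of the other label it rose by 1.38, 0.54, 1.20 and 1.77.

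The gene of Tas3, the subunit that joins Ago1 to Chp1, did not change as ago1 and chp1 did. In lsd1-ΔHMG cells tas3 was at 85.9 and 85.5 CPM at 37°C and at 42.2 and 36.9 CPM at 30°C. In set1Δ cells it was at 45.0 and 40.5 CPM at 37°C and at 18.3 and 15.1 CPM at 30°C, and in wild-type cells at 102.8 and 94.4 CPM in libraries labelled 37°C and at 30.1 and 33.9 CPM in those labelled 30°C. The set1Δ libraries lay below the wild-type and lsd1-ΔHMG libraries of the same temperature throughout, a pattern whose share among all features was not taken. In set1Δ the log2 fold change against wild-type was -1.21 at 37°C (standard error 0.11, adjusted p = 2.4e-07 from edgeR) and -0.94 at 30°C (standard error 0.12, adjusted p = 5.7e-06 from edgeR). The 30°C value ran from -1.16 to -0.93 over 11 other settings and from -1.02 to -0.64 with 1 library left out. It thus reached the fold limit in some of these fits. In lsd1-ΔHMG the log2 fold change was -0.20 at 37°C (standard error 0.11, adjusted p = 0.089 from edgeR), where other scalings and tests gave adjusted p from 0.00048 to 0.09. Of 11 other settings 6 placed this value past the test, and over all 11 it ran from -0.46 to -0.16. The GC and length offsets gave -0.30 (adjusted p = 0.0078 from edgeR). At 30°C tas3 rose in lsd1-ΔHMG by 0.31 (standard error 0.11, adjusted p = 0.020 from edgeR). Over 11 other settings the value ran from 0.13 to 0.40, and 3 of them placed it short of the test. This rise did not pass the test with the GC and length offsets (0.15, adjusted p = 0.16 from edgeR), nor without replicate 1 of wild-type labelled 30°C or replicate 1 of lsd1-ΔHMG at 30°C, where the lowest value was 0.21.

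The direction of tas3 against wild-type rested on the wild-type temperature labels. With the wild-type libraries of the other label, the log2 fold change at 37°C was 1.42 in lsd1-ΔHMG (adjusted p = 2.3e-08 from edgeR) and 0.41 in set1Δ (adjusted p = 0.0041 from edgeR). At 30°C it was -1.32 in lsd1-ΔHMG (adjusted p = 4.4e-08 from edgeR) and -2.56 in set1Δ (adjusted p = 1.3e-10 from edgeR). The fall in set1Δ at 30°C was thus found with both sets of wild-type libraries, and the other 3 values changed sign.

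The rdp1 gene encodes the polymerase that makes double-stranded RNA in the RDRC complex, and it fell in both mutants at 30°C. In lsd1-ΔHMG cells rdp1 was at 132.5 and 140.0 CPM at 37°C and at 67.6 and 68.9 CPM at 30°C. In set1Δ cells it was at 102.6 and 104.3 CPM at 37°C and at 65.0 and 63.8 CPM at 30°C. In wild-type cells it was at 106.0 and 99.9 CPM in libraries labelled 37°C and at 89.8 and 94.6 CPM in those labelled 30°C. The set1Δ and wild-type libraries at 37°C overlapped, and every mutant library at 30°C lay below every other library. No share of all features with this pattern was taken. At 37°C the log2 fold change against wild-type was 0.40 in lsd1-ΔHMG (standard error 0.07, adjusted p = 7.5e-05 from edgeR) and 0.01 in set1Δ (standard error 0.07, adjusted p = 0.94 from edgeR). At 30°C rdp1 fell by 0.43 in lsd1-ΔHMG (standard error 0.07, adjusted p = 4.6e-05 from edgeR) and by 0.52 in set1Δ (standard error 0.07, adjusted p = 1.2e-05 from edgeR). With the GC and length offsets the value of lsd1-ΔHMG at 37°C was 0.10 (adjusted p = 0.19 from edgeR), with TMM factors of protein-coding genes alone it was 0.15 (adjusted p = 0.064 from edgeR), and the offsets gave -0.26 in set1Δ (adjusted p = 0.0034 from edgeR). Both falls at 30°C passed the test with these offsets and with the wild-type libraries of the other label (-0.59 and -0.68).

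The Dicer gene dcr1 showed the largest difference between the mutants among the 5 genes. In lsd1-ΔHMG cells it was at 107.8 and 103.0 CPM at 37°C and at 102.4 and 95.8 CPM at 30°C. In set1Δ cells it was at 48.3 and 42.0 CPM at 37°C and at 27.97 and 27.1 CPM at 30°C, and in wild-type cells at 22.9 and 22.1 CPM in libraries labelled 37°C and at 32.8 and 33.6 CPM in those labelled 30°C. All 4 lsd1-ΔHMG libraries lay above all others, the next highest being 48.3 CPM. How many of all features separate in this way was not counted. In lsd1-ΔHMG dcr1 was 4.69-fold higher than in wild-type at 37°C (log2 fold change 2.23, standard error 0.09, adjusted p = 7.0e-11 from edgeR). At 30°C the level was 2.98-fold higher (log2 fold change 1.58, standard error 0.09, adjusted p = 1.7e-09 from edgeR). These rises were called under all other scalings, filters and tests, with log2 fold changes from 1.80 to 2.28 at 37°C and from 1.17 to 1.68 at 30°C. They were also called with the wild-type libraries of the other label (1.67 and 2.14).

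In set1Δ cells dcr1 rose by 1.01 at 37°C (standard error 0.09, adjusted p = 2.9e-07 from edgeR), just past the fold limit. Other settings placed this value between 0.73 and 1.04, and without replicate 1 of set1Δ or replicate 2 of wild-type at 37°C it was 0.96 and 0.98. With the wild-type libraries labelled 30°C it was 0.44 (adjusted p = 0.00059 from edgeR). At 30°C dcr1 fell in set1Δ by 0.27 (standard error 0.09, adjusted p = 0.017 from edgeR). This fall was lost in 5 of the 12 fits that left out a library, with values from -0.29 to -0.08, and turned to 0.29 with the wild-type libraries labelled 37°C (adjusted p = 0.011 from edgeR). The 5 libraries were replicate 1 of set1Δ at 37°C, both of set1Δ at 30°C, replicate 1 of wild-type labelled 37°C and replicate 2 of wild-type labelled 30°C.

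The dcr1 gene overlaps spn6, a septin gene on the opposite strand, over 33.9% of its length. The libraries were strand-specific, but the strand setting of the gene counts is not given in the sources used here, so reads of the shared stretch may not be told apart. The spn6 counts were low, at 11.3 and 14.6 CPM at 37°C and 6.21 and 8.47 CPM at 30°C in lsd1-ΔHMG cells. They were 14.4 and 14.5 CPM at 37°C and 6.06 and 6.20 CPM at 30°C in set1Δ cells, and 6.13 and 6.80 CPM in wild-type libraries labelled 37°C and 8.01 and 7.66 CPM in those labelled 30°C. In each of the 12 libraries spn6 was below dcr1. RefSeq also lists long non-coding RNAs antisense to each of the 5 genes that the count table does not hold, the longest overlap being 51.3% of ago1.

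**Figure D2:**
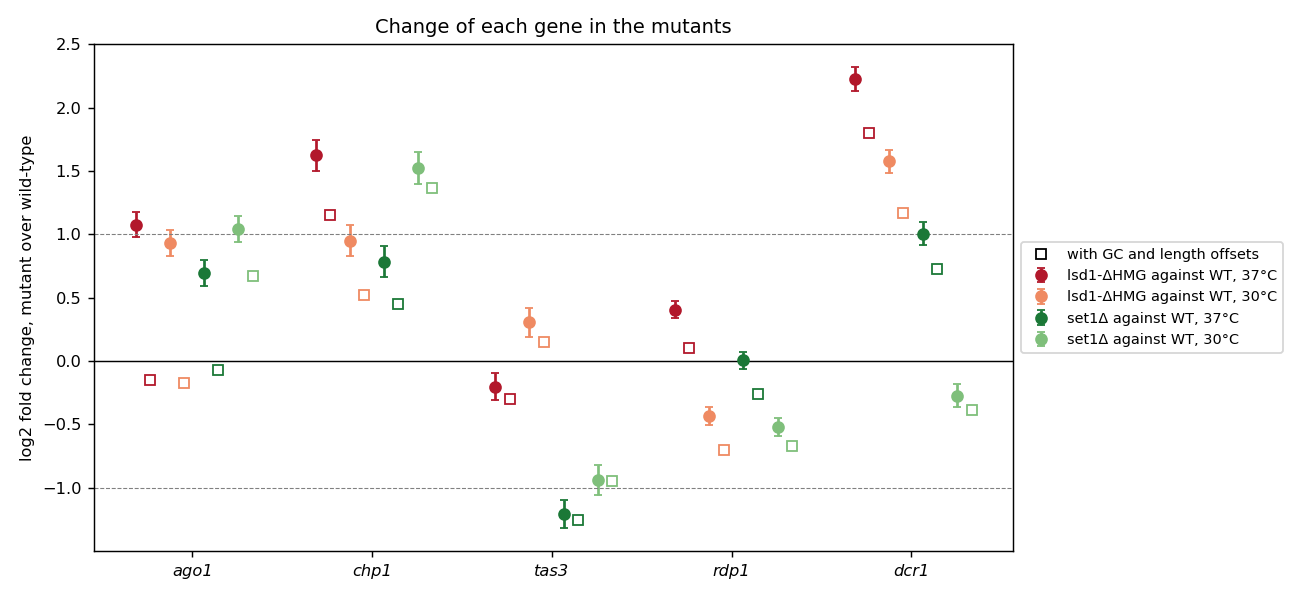
Log2 fold change of each gene in the mutants over wild-type (vertical axis; filled points with standard error bars), with the value after GC and length offsets (open squares) and dashed lines at 1 and -1. Filled points of ago1 lie between 0.70 and 1.08, and its squares lie below 0 except in set1Δ at 30°C (0.67), whereas dcr1 in lsd1-ΔHMG stays above 1 with the offsets.

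In both mutants tas3 rose at 37°C, and in wild-type its direction rests on the labels. At 37°C against 30°C tas3 was 2.17-fold higher in lsd1-ΔHMG (log2 fold change 1.11, standard error 0.11, adjusted p = 9.7e-07 from edgeR) and 2.56-fold higher in set1Δ (log2 fold change 1.35, standard error 0.12, adjusted p = 1.1e-07 from edgeR). In wild-type it was 3.08-fold higher in the libraries labelled 37°C (log2 fold change 1.62, standard error 0.11, adjusted p = 2.6e-08 from edgeR). It was the only one of the 5 genes called with temperature in any strain. Of all features 4.48% were called higher in lsd1-ΔHMG, 11.4% in set1Δ and 5.55% in wild-type. The tas3 value lay above 97%, 93.9% and 98.7% of all features in those strains. These calls held under every other scaling, filter and test, with lowest values of 1.01, 1.23 and 1.54, and in the 8 mutant libraries fitted alone (1.08 and 1.35). With the wild-type labels exchanged, the wild-type value is -1.62.

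The other 4 genes moved less with temperature. In lsd1-ΔHMG cells rdp1 rose by 0.998 (standard error 0.07, adjusted p = 4.7e-08 from edgeR), just short of the fold limit, and chp1 rose by 0.43 and ago1 by 0.37. Of all features 37.3% rose in lsd1-ΔHMG, against 4 of these 5 genes. Without replicate 1 of lsd1-ΔHMG at 30°C, chp1 was at 0.27 (adjusted p = 0.084 from edgeR) and ago1 at 0.28 (adjusted p = 0.052 from edgeR). In set1Δ cells dcr1 rose by 0.71 (standard error 0.09, adjusted p = 7.5e-06 from edgeR) and rdp1 by 0.68 (standard error 0.07, adjusted p = 6.8e-07 from edgeR). There chp1 fell by 0.99 (standard error 0.12, adjusted p = 4.1e-06 from edgeR), and 39.6% of all features rose and 38.9% fell. In wild-type cells dcr1 fell by 0.56 (standard error 0.09, adjusted p = 0.00010 from edgeR), where 33.4% of all features rose and 38.8% fell. The ago1 value in wild-type was 0.23 (adjusted p = 0.058 from edgeR) and that of rdp1 was 0.16 (adjusted p = 0.052 from edgeR), and 6 and 9 of 11 other settings placed them past the test (0.42 and 0.26 with the GC and length offsets).

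**Figure D3:**
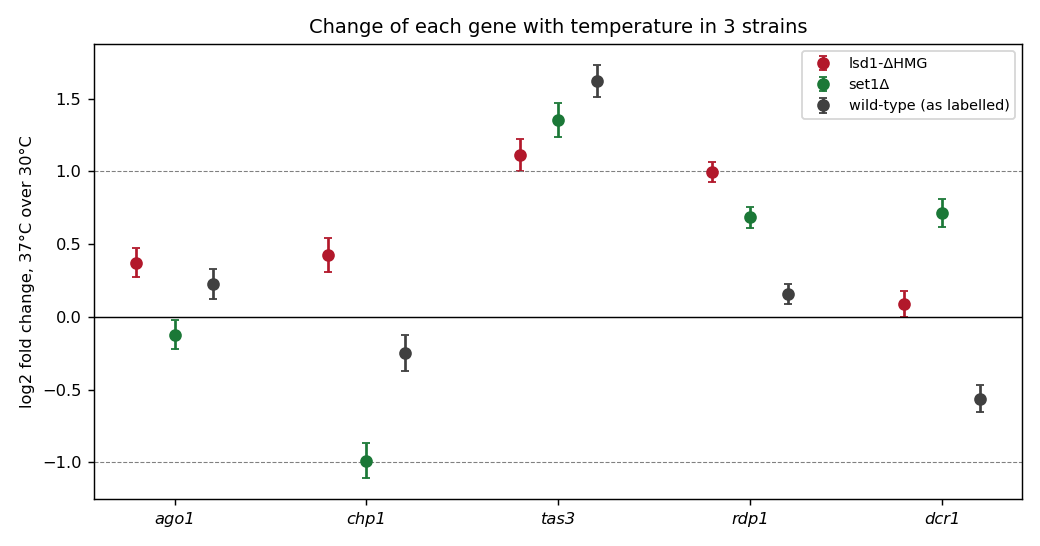
Log2 fold change at 37°C over 30°C (vertical axis) of each gene in lsd1-ΔHMG, set1Δ and wild-type as labelled, with standard error bars and dashed lines at 1 and -1. Only tas3 lies above 1 in all 3 strains as labelled (1.11, 1.35 and 1.62), and chp1 has its lowest value in set1Δ (-0.99).

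The difference of a mutant's effect between the temperatures was tested as an interaction. For lsd1-ΔHMG the signed log2 fold change was higher at 37°C for rdp1, chp1 and dcr1 and lower for tas3. None of the 5 reached a log2 difference of 1. For rdp1 the value went from -0.43 at 30°C to 0.40 at 37°C. Among all features 34.3% had a higher and 21.3% a lower signed value at 37°C. For set1Δ the signed log2 fold change was higher at 37°C for dcr1 and rdp1 and lower for chp1 and ago1. Here 37.7% of all features had a higher and 34.9% a lower signed value. For rdp1 the set1Δ value was -0.52 at 30°C and 0.01 at 37°C, where it did not pass the test. With the GC and length offsets these values were -0.67 and -0.26, and both passed the test. The dcr1 difference, 1.28, was called (standard error 0.13, adjusted p = 1.1e-06 from edgeR), as were 18.9% of all features in that direction. With the wild-type labels exchanged it was 0.15 (adjusted p = 0.30 from edgeR).

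The mutants were also compared directly, without the wild-type libraries as a reference. At 37°C all 5 genes were higher in lsd1-ΔHMG than in set1Δ, where 41% of all features were higher. The log2 fold change reached 1.22 for dcr1 (standard error 0.09, adjusted p = 4.4e-08 from edgeR), with tas3 at 1.01 (standard error 0.11, adjusted p = 1.5e-06 from edgeR), both called, as were 12% of all features. It was 0.84 for chp1, 0.40 for rdp1 and 0.38 for ago1. The ago1 value was -0.08 with the GC and length offsets (adjusted p = 0.41 from edgeR), and that of tas3 was 0.92 with the 8 mutant libraries fitted alone. At 30°C dcr1 was higher in lsd1-ΔHMG by 1.85 (standard error 0.09, adjusted p = 3.3e-10 from edgeR) and tas3 by 1.25 (standard error 0.12, adjusted p = 2.1e-07 from edgeR), both called, as were 19.4% of all features in that direction. Of all features 44.9% were higher and 40.9% lower in lsd1-ΔHMG at 30°C. The chp1 level was lower there, with a log2 fold change of -0.57 (standard error 0.12, adjusted p = 0.00047 from edgeR). Neither ago1 (-0.11, adjusted p = 0.30 from edgeR) nor rdp1 (0.08, adjusted p = 0.28 from edgeR) passed the test, though ago1 was at -0.85 with the offsets (adjusted p = 1.4e-07 from edgeR).

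The order of the 6 conditions differed between genes. For ago1 it ran from lsd1-ΔHMG at 37°C down to wild-type labelled 30°C, and the steps among set1Δ at 30°C, lsd1-ΔHMG at 30°C and set1Δ at 37°C did not pass the test. The same held for the step between the 2 wild-type conditions (adjusted p = 0.058 from edgeR). For chp1 set1Δ at 30°C and lsd1-ΔHMG at 37°C stood at the top without differing (adjusted p = 0.25 from edgeR), and the 2 wild-type conditions stood at the bottom, also without differing (adjusted p = 0.091 from edgeR). For tas3 wild-type labelled 37°C and lsd1-ΔHMG at 37°C did not differ at the top, and set1Δ at 30°C was lowest. For rdp1 lsd1-ΔHMG at 37°C was highest, set1Δ at 37°C and both wild-type conditions followed with no step among them past the test, and the mutants at 30°C were lowest. For dcr1 the 2 lsd1-ΔHMG conditions did not differ (adjusted p = 0.38 from edgeR), and each step below them did. The highest condition mean exceeded the lowest by 2.47-fold for ago1, 3.40-fold for chp1, 5.88-fold for tas3, 2.11-fold for rdp1 and 4.67-fold for dcr1. The median range of all tested protein-coding genes was 3.34-fold, so ago1 and rdp1 lay below it and tas3, dcr1 and chp1 above it.

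Per gene length, all 5 mRNAs were scarce. The median over 12 libraries was 27.2 TPM for rdp1, 24.8 for tas3, 21.6 for ago1, 14.96 for chp1 and 7.92 for dcr1. In each library the share of protein-coding genes with a lower TPM was taken, and its median over the libraries lay between 7.9% and 29.1%. The widest span was that of tas3, between 5.43 and 63.1 TPM.

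Ratios within a library do not depend on the scaling between libraries and were taken after the levels had been seen. Per base, tas3 over chp1 in lsd1-ΔHMG cells was 2.00 in replicate 1 and 2.22 in replicate 2 at 37°C, and 1.58 in replicate 1 and 1.09 in replicate 2 at 30°C. In set1Δ cells the 37°C libraries had ratios of 1.84 and 1.92 and the 30°C libraries ratios of 0.43 and 0.32. In wild-type cells the libraries labelled 37°C had 8.07 and 6.92, and those labelled 30°C had 1.96 and 2.12. The set1Δ libraries at 30°C were thus the only ones in which chp1 exceeded tas3 per base. The ratio of ago1 to chp1 spanned less, from 1.08 in set1Δ at 30°C to 2.16 in wild-type labelled 37°C. For dcr1 over rdp1, lsd1-ΔHMG libraries had 0.60 and 0.54 when grown at 37°C and 1.11 and 1.02 when grown at 30°C. The set1Δ libraries ran from 0.30 to 0.35 over both temperatures, and the wild-type libraries from 0.16 to 0.27. Both mutants thus lay above every wild-type library.

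**Figure D4:**
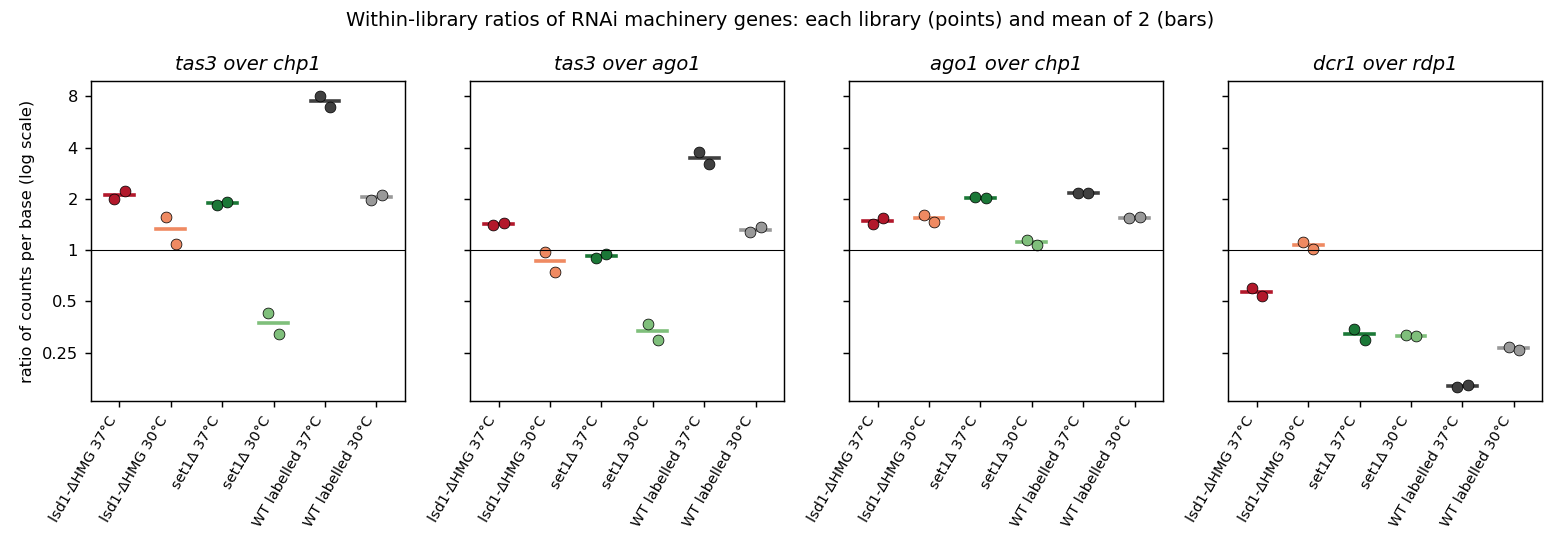
Ratios of counts per base between RNAi machinery genes within each library (points; log scale) with the mean of 2 (bars), by strain and labelled temperature. The tas3 to chp1 ratio is below 1 only in set1Δ at 30°C (0.43 and 0.32) and is highest in wild-type labelled 37°C (8.07 and 6.92).

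Across the 12 libraries, log2 CPM of ago1 and chp1 correlated with r = 0.90 and that of rdp1 and tas3 with r = 0.78. The other 8 pairs lay between -0.38 and 0.63. The points share 6 conditions in pairs and are described without a test. By the same measure, the protein-coding genes most like each member were sought among those with a mean of at least 50 counts. They were arp6 (r = 0.98), fap1 and atd2 for ago1, vph1 (r = 0.98), gud1 and srb8 for chp1, and set11 (r = 0.997), crb3 and gtp1 for tas3. For rdp1 they were mdl1 (r = 0.97), prp17 and ppr1, and for dcr1 cyr1 (r = 0.99), bro1 and pho841.

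Of the protein-coding genes next to the RNAi machinery genes, some rose in both mutants and others did not. The mmi1 gene, which lies 17 bases from ago1 on the opposite strand, rose by 1.49 in lsd1-ΔHMG and 0.89 in set1Δ at 37°C, and by 0.98 in lsd1-ΔHMG and 2.17 in set1Δ at 30°C. With the wild-type libraries of the other label, mmi1 fell in set1Δ at 37°C (-0.21, adjusted p = 0.046 from edgeR) and rose in the other 3 comparisons. Beside dcr1, the splicing factor gene prp45, 284 bases away on the opposite strand, rose by 3.11 in lsd1-ΔHMG and 2.52 in set1Δ at 37°C, and by 1.65 in lsd1-ΔHMG and 0.81 in set1Δ at 30°C. On the other side of dcr1, svf1 rose by 0.37 in lsd1-ΔHMG and fell by 0.35 in set1Δ at 37°C, and rose by 1.17 in lsd1-ΔHMG and 0.29 in set1Δ at 30°C. Both set1Δ values of svf1 changed sign with the other label (0.57 and -0.63).

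Beside rdp1, ade3 rose in the same 4 comparisons by 2.62, 1.94, 1.90 and 0.73. On its other side, exo8 fell by 0.69 in lsd1-ΔHMG at 37°C, by 1.03 in lsd1-ΔHMG at 30°C and by 0.32 in set1Δ at 30°C, and was at 0.06 in set1Δ at 37°C (adjusted p = 0.54 from edgeR). The aim18 gene, 93 bases from chp1 on its strand, fell by 0.24 in lsd1-ΔHMG and was at 0.06 in set1Δ at 37°C, and rose by 1.43 in lsd1-ΔHMG and 2.13 in set1Δ at 30°C. Beside tas3, apc15 rose in the 4 comparisons by 2.36, 1.20, 1.85 and 0.89. On the other side of tas3, ucp8 fell by 0.35 in lsd1-ΔHMG at 37°C and rose by 0.63 in set1Δ at 30°C, and the other 2 values did not pass the test (-0.10 in set1Δ at 37°C and 0.20 in lsd1-ΔHMG at 30°C). With the wild-type libraries of the other label, the rises of prp45, ade3 and apc15 passed the test in all 4 comparisons. For these neighbours and for the genes of the lists below, no other alternative was examined. Their values with the GC and length offsets, with other scalings or without 1 library were not taken. The part of these neighbours in the counts of the 5 genes was not tested.

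Of 9 RNAi partner genes, 2 rose and 6 fell in lsd1-ΔHMG both at 37°C and at 30°C, with medians of -0.42 and -0.24. Of all features 41.3% rose and 43.3% fell at 37°C, and 39.9% rose and 45% fell at 30°C. With the wild-type libraries of the other label, 4 of the 9 rose and 4 fell at 37°C, and 3 rose and 6 fell at 30°C. The RDRC poly(A) polymerase gene cid12 rose by 0.81 and 0.64 and tri1, whose product trims RNA bound to Argonaute, by 0.46 and 0.62. The Argonaute chaperone subunit gene arb2 fell by 0.81 and 0.83, eri1, which encodes a nuclease of small interfering RNA, by 0.97 and 0.44, and stc1, whose protein joins RITS to the Clr4 complex, by 0.73 and 0.40. These 5 genes passed the test in the same directions with the other label. In set1Δ at 37°C, where 36.7% of all features rose and 33.8% fell, 1 of the 9 rose and 4 fell. At 30°C, where 47.7% of all features rose and 32.8% fell, 3 of the 9 rose and none fell. With the other label 6 rose and 2 fell at 37°C, and 1 rose and 5 fell at 30°C. The largest value was that of arb1, a partner of Ago1, which rose by 1.05 in set1Δ at 30°C (1.71 with the other label). The RDRC helicase gene hrr1 did not pass the test in any mutant comparison with wild-type as labelled (-0.19 to -0.04).

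Of 8 genes of the Clr4 complex and the Swi6 family, 2 rose and 6 fell in lsd1-ΔHMG at both temperatures, with medians of -0.39 at 37°C and -0.73 at 30°C. Of all features 41.3% rose and 43.3% fell at 37°C, with a median of -0.06. At 30°C 39.9% of all features rose and 45% fell, with a median of -0.11. With the other label 4 of the 8 genes rose and 3 fell at 37°C, and 1 rose and 6 fell at 30°C. The H3K9 methyltransferase gene clr4 rose by 1.70 at 37°C and 1.58 at 30°C (1.93 and 1.35 with the other label), and the heterochromatin protein gene chp2 fell by 1.30 and 1.22. In set1Δ at 37°C, where 36.7% of all features rose and 33.8% fell, 1 of the 8 rose and 4 fell, against 2 and 1 with the other label. At 30°C, where 47.7% of all features rose and 32.8% fell as labelled, 3 of the 8 rose and 3 fell under both labels. At 30°C epe1, a heterochromatin antagonist of the JmjC family, rose by 1.47 in set1Δ, and the cullin gene pcu4 fell by 1.36.

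Of 9 nuclear RNA turnover genes, 4 rose and 4 fell in lsd1-ΔHMG at 37°C, where 41.3% of all features rose and 43.3% fell. At 30°C 2 of the 9 rose and 6 fell, where 39.9% of all features rose and 45% fell. With the other label 4 of the 9 rose and 4 fell at 37°C, and 3 rose and 6 fell at 30°C. In set1Δ at 37°C, where 36.7% of all features rose and 33.8% fell, 3 of the 9 rose and 4 fell. At 30°C, where 47.7% of all features rose and 32.8% fell, 5 of the 9 rose and 3 fell. With the other label 1 of the 9 rose and 5 fell at 37°C, and 5 rose and 4 fell at 30°C. Here red1, which like mmi1 acts in the removal of meiotic mRNA, rose by 1.67 in lsd1-ΔHMG and 0.93 in set1Δ at 37°C and by 1.09 and 0.85 at 30°C, and it rose in all 4 comparisons with the other label. The exosome nuclease gene dis3 rose by 1.94 in lsd1-ΔHMG and 1.28 in set1Δ at 37°C, but was at 0.43 in lsd1-ΔHMG (adjusted p = 0.0046 from edgeR) and -0.24 in set1Δ (adjusted p = 0.095 from edgeR) with the other label. At 30°C dis3 was at 0.02 in lsd1-ΔHMG (adjusted p = 0.90 from edgeR) and rose by 0.71 in set1Δ. The TRAMP gene air1 fell in each mutant comparison, with log2 fold changes of -0.75 in lsd1-ΔHMG and -1.003 in set1Δ at 37°C, and -0.91 in lsd1-ΔHMG and -1.56 in set1Δ at 30°C. The TRAMP helicase gene mtr4 fell by 1.07 in set1Δ at 30°C.

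**Figure D5:**
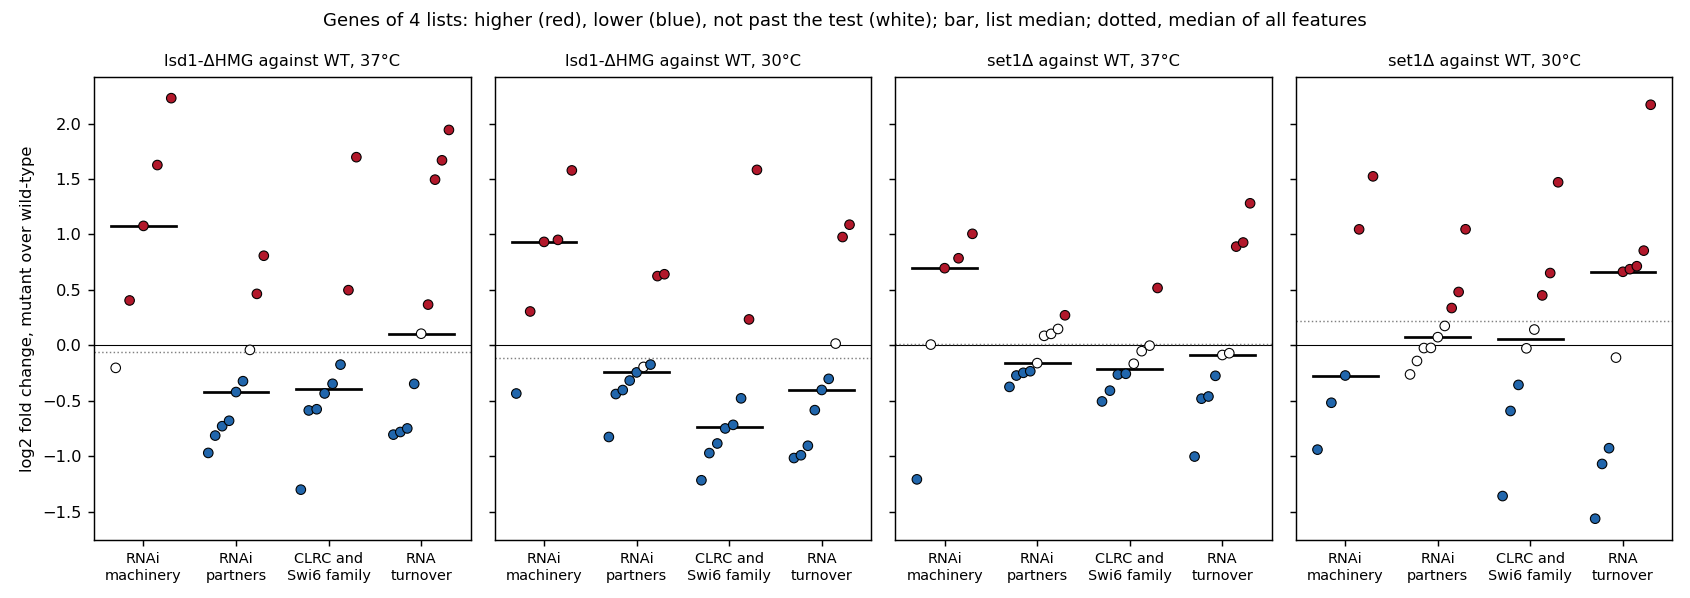
Log2 fold change in the mutants over wild-type (vertical axis) of the 5 RNAi machinery genes, 9 partner genes, 8 genes of the Clr4 complex and Swi6 family, and 9 RNA turnover genes. Red points rose, blue points fell, white points did not pass the test, black bars are list medians and dotted lines the median of all features. At 37°C in lsd1-ΔHMG the RNAi machinery median is 1.08 and the partner median is -0.42. The former is the value of ago1, which was at -0.15 with the GC and length offsets.

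The subtelomeric helicase genes tlh1 and tlh2, which hold sequence like the pericentromeric dh repeat, rose in all 4 comparisons with wild-type as labelled. The tlh1 level was 9.19 and 11.3 CPM in lsd1-ΔHMG and 1.77 and 1.79 CPM in set1Δ at 37°C, against 0.54 and 0.25 CPM in wild-type. At 30°C it was 22.7 and 19.99 CPM in lsd1-ΔHMG and 4.10 and 3.80 CPM in set1Δ, against 1.27 and 1.39 CPM in wild-type. In lsd1-ΔHMG the log2 fold change reached 4.64 at 37°C and 4.003 at 30°C, and in set1Δ it reached 2.12 and 1.57. With the wild-type libraries of the other label, neither gene passed the test in set1Δ at 37°C (0.42 for tlh1, adjusted p = 0.14 from edgeR), and both rose in the other 3 comparisons. Since the 2 genes are near-identical copies, how their reads were divided between them is uncertain. At 37°C against 30°C both fell in the mutants, tlh1 by 1.06 in lsd1-ΔHMG and 1.15 in set1Δ. In wild-type tlh1 was at -1.70 as labelled and at 1.70 with the labels exchanged.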

How the data were processed

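The authors trimmed reads with Trimmomatic 0.39, aligned them with STAR to ASM294v2 and assigned them to genes with featureCounts. The deposited values are expected counts without normalization, since a read over several features is divided among them, and they were rounded to whole numbers. Of 34 value columns 12 were used and 22 were not. The features were matched by identifier to RefSeq ASM294v3 (6846, or 94.2%), for names, neighbours, GC content and gene length alone. No coordinates or sequences are given, because the builds differ.

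All 12 libraries were fitted in one model of 6 condition means with edgeR 4.0.16 (R 4.3.3; TMM, filterByExpr, robust quasi-likelihood), and p-values were adjusted over 6904 features in each of 11 comparisons. The biological coefficient of variation was 0.0806, and the lowest correlation between replicates was 0.993. The design limits the precision to that of 2 libraries per condition. The test was checked on data with known answers before use. The alternatives were other size factors, DESeq2 1.42.0, limma-voom 3.58.1, other filters and limits, only the libraries compared, GC and length offsets (lowess, span 0.3), a replicate block, and leaving out each library. Exchanged wild-type labels and the mutant libraries alone were added after the data were seen.

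The text names the 5 members, 5 fixed lists of related and control genes, set1 and lsd1, neighbouring genes, and the 3 protein-coding genes most correlated with each member (mean of at least 50 counts, prior count 2). Members and lists were chosen with earlier results of these data known.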

Additional observations from a re-analysis of the deposited data

Results flagged for a closer look

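Mutant effects that differed between 37°C and 30°C were found for 8 of the 10 pairs of a gene and a mutant by the interaction test of edgeR with Benjamini-Hochberg adjustment over 6904 features. For lsd1-ΔHMG the log2 difference was 0.84 for rdp1 (adjusted p = 1.1e-05), 0.67 for chp1 (adjusted p = 0.0048), 0.65 for dcr1 (adjusted p = 0.00072) and -0.51 for tas3 (adjusted p = 0.012). For set1Δ it was 1.28 for dcr1 (adjusted p = 1.1e-06), 0.52 for rdp1 (adjusted p = 0.00029), -0.74 for chp1 (adjusted p = 0.0017) and -0.35 for ago1 (adjusted p = 0.040). Such differences were common, since 34.3% of all features had a higher and 21.3% a lower signed effect at 37°C for lsd1-ΔHMG, and 37.7% and 34.9% for set1Δ. Fits without 1 library placed adjusted p at 0.067 for chp1 in lsd1-ΔHMG (without replicate 1 of wild-type labelled 37°C) and at 0.064 for tas3 in lsd1-ΔHMG (without replicate 1 of wild-type labelled 30°C), and tas3 in lsd1-ΔHMG also missed the test without replicate 1 of lsd1-ΔHMG at 30°C. For ago1 in set1Δ the difference did not pass the test in 4 such fits (highest adjusted p = 0.13), which left out either wild-type library labelled 30°C, replicate 2 of wild-type labelled 37°C or replicate 2 of set1Δ at 37°C. With upper-quartile factors it was -0.22 (adjusted p = 0.20). These tests rest on the wild-type labels. With the labels exchanged, the differences of dcr1, chp1 and tas3 in lsd1-ΔHMG were -0.48, 0.18 and 2.74, and those of dcr1 and ago1 in set1Δ were 0.15 and 0.11, while rdp1 stayed past the test in both mutants (1.16 and 0.84) and chp1 in set1Δ (-1.24).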

How the results depend on the processing

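With 2 libraries per condition, most values of single genes had the same sign and the same side of the test as in the report. Under the 11 other settings, 546 did so, 30 passed the test newly, 9 no longer passed and 20 changed sign. With 1 library left out, these numbers were 624, 14, 16 and 6. The causes were not tested.

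Offsets for GC content and gene length turned ago1 to -0.15 in lsd1-ΔHMG and -0.069 in set1Δ at 37°C, to -0.18 in lsd1-ΔHMG at 30°C, and to -0.078 in lsd1-ΔHMG against set1Δ at 37°C. With the replicate block and these offsets the values were -0.15, -0.067, -0.18 and -0.080. The near-zero change of rdp1 in set1Δ at 37°C became -0.046 with DESeq2 size factors and with DESeq2's Wald test, -0.050 with TMM factors of protein-coding genes, -0.012 with only the libraries compared, and -0.26 with the offsets, with or without the block. It ran from -0.035 to 0.097 with 1 library left out. In lsd1-ΔHMG against set1Δ at 30°C, rdp1 became -0.052 with TMM factors of protein-coding genes and -0.033 with the offsets, with or without the block, and ago1 became 0.020 with upper-quartile factors. The heat change of dcr1 in lsd1-ΔHMG became -0.013 with TMM factors of protein-coding genes, and that of ago1 in set1Δ became 0.039 with upper-quartile factors. The difference of the lsd1-ΔHMG effect on ago1 between temperatures ran from -0.048 to 0.24 with 1 library left out.

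The wild-type libraries of the other label, a setting added after the data were seen, changed the sign of 8 values. These were tas3 in lsd1-ΔHMG (1.42) and set1Δ (0.41) at 37°C and in lsd1-ΔHMG at 30°C (-1.32), dcr1 in set1Δ at 30°C (0.29), the temperature differences of the lsd1-ΔHMG effect on dcr1 (-0.48) and tas3 (2.74), and those of the set1Δ effect on ago1 (0.11) and tas3 (2.98).

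The number of the 5 genes called depended on the limits. At any fold change it was 4 for set1Δ at 37°C, 5 for each mutant at 30°C, 2 for heat in wild-type, 4 for heat in each mutant, 4 for each interaction and 5 for lsd1-ΔHMG against set1Δ at 37°C. With an adjusted p of at most 0.0001 and a log2 fold change of 2, it was 1 for lsd1-ΔHMG at 37°C and 0 in the other comparisons that had calls. Among all features, 55.6% to 85.8% passed at any fold change, and 1.72% to 15.3% passed the stricter limits (15.3% for lsd1-ΔHMG at 37°C). For set1Δ at 37°C it was 1 with DESeq2 size factors, TMM factors of protein-coding genes, DESeq2's Wald test, limma-voom, only the libraries compared, or the offsets with or without the block, and 0 with the other wild-type label. For lsd1-ΔHMG at 30°C it was 3 with only the libraries compared and with the other label, and for set1Δ at 30°C it was 1 with the offsets. For heat it was 2 in lsd1-ΔHMG without a filter or with the offsets, and 2 in set1Δ with TMM factors of protein-coding genes, a mean of at least 50 counts or the offsets. For lsd1-ΔHMG against set1Δ at 37°C it was 1 with each other scaling, the mean of at least 50 counts, the Wald test, only the libraries compared, the offsets, or the mutant libraries alone. It was 2 for each interaction with the other label. With 1 library left out it ran from 1 to 2 for set1Δ at 37°C, heat in each mutant and lsd1-ΔHMG against set1Δ at 37°C, and from 1 to 3 for lsd1-ΔHMG at 30°C. The last gained ago1 and chp1 without replicate 1 of wild-type labelled 37°C, of lsd1-ΔHMG at 30°C or of set1Δ at 37°C, or without either set1Δ library at 30°C. For heat, rdp1 was gained in lsd1-ΔHMG without replicate 1 at 37°C or replicate 2 at 30°C, and chp1 in set1Δ without replicate 1 at either temperature. Between the mutants, tas3 was lost without replicate 1 of wild-type labelled 37°C, replicate 2 of set1Δ at 37°C or either set1Δ library at 30°C. Changes between 2 and 3 or between 3 and 4 called genes are not listed here. The same number can also stand for different genes.

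Scaling moved the whole distribution too. TMM factors of protein-coding genes shifted the median of all features by -0.26 in lsd1-ΔHMG at 37°C, where the share of calls that were higher went to 46.4% against 62.3%. They shifted it by -0.18 in lsd1-ΔHMG at 30°C (47.1% against 57.4%), by -0.10 for heat in lsd1-ΔHMG (19.8% against 30%) and by -0.20 for lsd1-ΔHMG against set1Δ at 37°C (28.7% against 51.5%). Upper-quartile factors shifted heat in set1Δ by 0.16 (47.8% against 35.4%). The offsets gave 56.4% against 77.1% for set1Δ at 37°C, 43.9% against 57.4% for lsd1-ΔHMG at 30°C and 44.3% against 64.6% for set1Δ at 30°C. For heat they gave 39.9% against 25.9% in wild-type, 62.1% against 30% in lsd1-ΔHMG and 50.8% against 35.4% in set1Δ.

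The replicate numbers were not taken to pair the samples, because pairing was accepted only where every pair of conditions had deviations correlated over 0.1. Of 15 pairs, 9 passed this limit and 6 did not (-0.234 to 0.485). The replicate block placed rdp1 with heat in wild-type past the test (0.16, adjusted p = 0.044 from edgeR) and changed no other call.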
